A study of Mus musculus with 12 samples.

Results

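A small group of transcripts of low and nearly the same listed length held the largest shares of the ribosome footprints in the newborn mouse eye. It consisted of 9 features in a narrow band of listed length, the longest 1.26 times the shortest and the median at 165, each with a mean of at least 1.1% of the footprint counts of a library. They stood among 32803 features in all, 2213 of them in that band. The members were chosen by their footprint level, averaged over 6 footprint libraries of both genotypes, and by the listed length. Their high footprint level is therefore a description and was not tested. The listed length is a number that the deposited files give for each transcript, with no stated unit. A feature is 1 transcript, or several transcripts with identical counts in every library.

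The study compared eyes at postnatal day 0.5 from RNG140 knockout mice (KO) and wild-type mice (WT). RNG140 is an RNA-binding protein encoded by Caprin2. The labels give no strain, sex, litter, promoter or knockout allele, and do not say how many animals were pooled in a library. Ribosome profiling, which sequences the fragments that ribosomes protect from RNase I, and mRNA-seq were each done on 3 libraries per genotype, 12 libraries in all. The labels do not tell whether each library is its own animal, and the p-values below therefore reflect variation among libraries that could be technical.

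Crystallins, the bulk of the soluble protein of the lens, are short proteins of closely similar size. α-Crystallins act as chaperones of the small heat-shock family, and β- and γ-crystallins are compact structural proteins packed densely into lens fibre cells. In the eye of a newborn mouse the lens is growing fast, and crystallin mRNAs are among its most abundant messages. The identifiers in the files were not paired with gene names by the files or by the reference tables used here, so whether the members are crystallins was not checked. They are named by identifier and listed length, and no sequence is printed for them. For the same reason the loss of Caprin2 and the tissue markers were not checked, and the genotypes rest on the labels.

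Counts in the kept features ranged from 296549 to 5324271 in the footprint libraries and from 602243 to 1124207 in the mRNA libraries. WT footprint library 1 was the shallowest. Depth did not limit the members, whose lowest count in any library was 602. WT mRNA library 3 stood apart from WT mRNA libraries 1 and 2 in every member, and the main mRNA values and ratios are given with and without it.

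The counts of the 9 members were not all clearly distinct. The transcripts uc008bvq.2, uc008bvp.2 (listed length 187) and uc033hcn.1 (193) had almost the same counts everywhere. The count of uc008bvq.2 lay between 0.995 and 1.03 times that of uc008bvp.2 in the 12 libraries, and between 0.999 and 1.04 times that of uc033hcn.1. Such counts would arise if the transcripts were counted over almost the same reads, which was not checked. Unless stated otherwise, the sums and the make-up below count these 3 once, represented by uc008bvq.2. Counts of members out of 9 and medians over the members hold all 3. A further 5 members had a listed length of 165 or 166, namely uc007bhf.1, uc007bhk.1, uc007bhg.2, uc007bhv.1 and uc007bhj.2. The remaining member, uc007khe.2, was the longest of the group, and uc008bvq.2 the shortest. No other pair of members stayed within 10% of each other in every library. The sources used here do not give the rule by which reads matching more than 1 similar transcript were assigned, so the division of reads among the members of length 165 and 166 is uncertain.

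Just inside the threshold of 1.1% were uc007bhv.1, with a mean of 1.27% of the footprint counts, and uc007bhj.2, with 1.16%. Just outside it were uc007bhi.2 (listed length 165), with 0.917%, and uc007bhh.3 (166), with 0.902%. The next feature in the band of listed length, uc012ebm.1 (202), had 0.388%. Chosen from the WT libraries alone, the same 9 features would qualify. From the KO libraries alone 8 would, without uc007bhj.2.

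In footprints the members filled the first 9 places of all features by mean share. The most abundant footprint feature outside the group was uc007kzn.2, of listed length 1444, with a mean of 1.03%. With the 3 near-identical transcripts counted once, the members together took 6.25%, 13.5% and 14.6% of the counts in WT footprint libraries 1, 2 and 3. In KO footprint libraries 1, 2 and 3 they took 16.1%, 5.74% and 7.68%. High libraries (WT 2, WT 3 and KO 1) and low ones (WT 1, KO 2 and KO 3) thus occurred in both genotypes. The mean was 11.4% ± 4.52 in WT and 9.83% ± 5.49 in KO (SD, n = 3). With all 9 counted separately the libraries ranged from 8.03% to 21.7%. In whole eyes, a difference in the number of cells that hold these RNAs and a difference in their level per cell cannot be told apart.

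In mRNA the same transcripts held a smaller mean share, by more in WT than in KO. In KO library 2 the summed shares were nearly equal, at 5.74% in footprints and 5.67% in mRNA. The summed members held 1.36%, 1.55% and 3.90% of the counts in WT mRNA libraries 1, 2 and 3, and 5.87%, 5.67% and 4.33% in KO mRNA libraries 1, 2 and 3. Every KO library lay above every WT library, but WT library 3 was closer to the KO libraries than to the other WT libraries. The mean share was 2.27% ± 1.41 for WT and 5.29% ± 0.835 for KO (SD, n = 3), 2.33 times as large. Without WT library 3 the WT mean was 1.46% and the KO mean 3.64 times as large, and against WT library 3 alone the KO mean was 1.36 times as large. Ranked by mean mRNA share over all 6 libraries, uc007khe.2 stood at rank 3 among all features (rank 1 to 5 in single libraries) and uc007bhv.1, the lowest member, at rank 13 (rank 6 to 24). That mean joins genotypes with different shares, and uc007bhj.2 ran from rank 2 to 14. The most abundant mRNA feature outside the group was uc029qyg.1, of listed length 1272, with a mean of 1.04%.

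**Figure D1:**
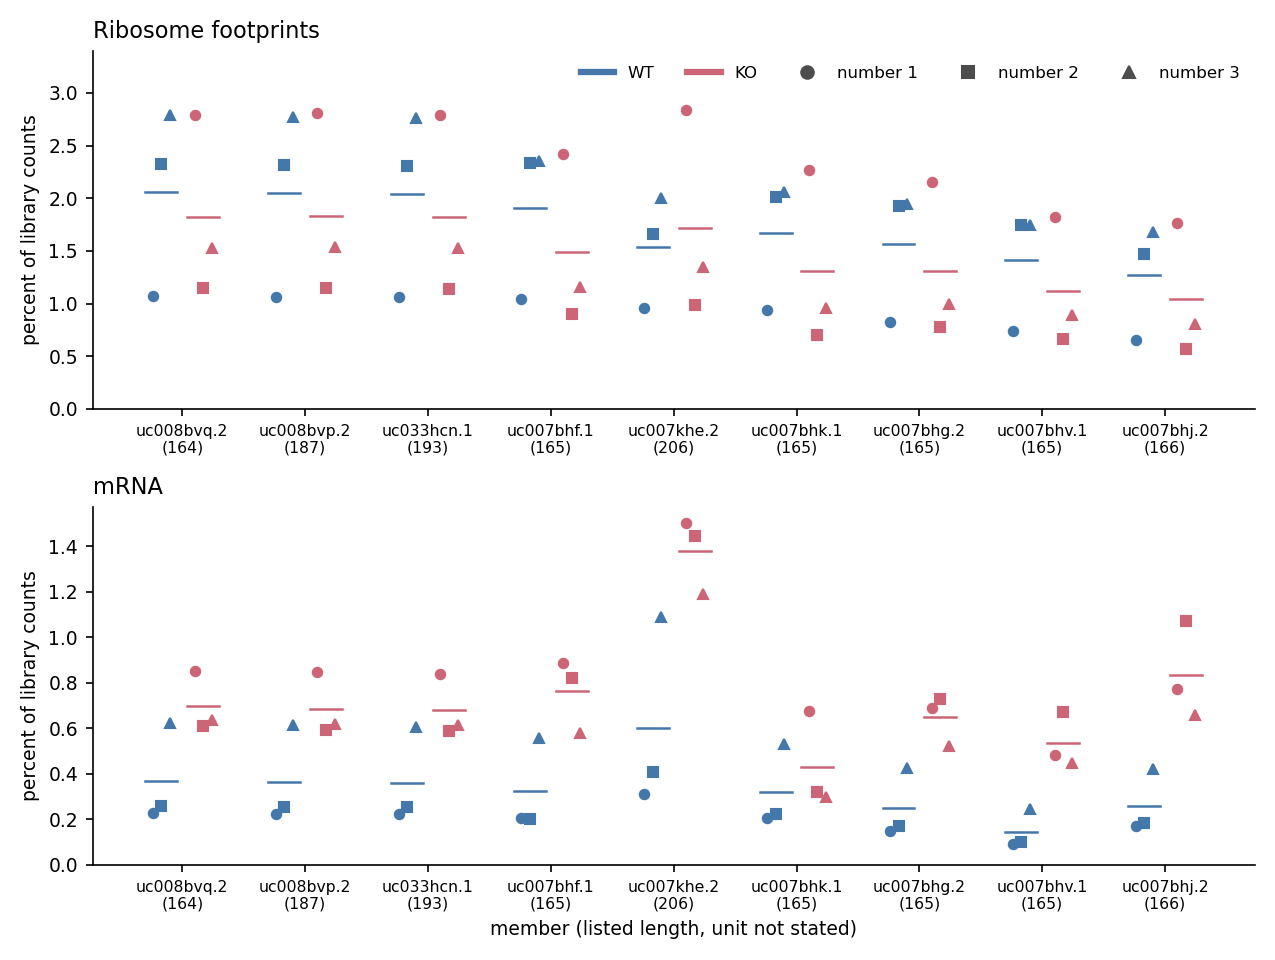
Share of each member in each library, as a percent of the library's counts, in footprints (top) and mRNA (bottom). Points are libraries, with the shape giving the number in the label, and bars are means of 3 libraries. In footprints the genotypes overlap for every member, from 0.566% to 2.84%, and in mRNA WT library 3 lies above WT libraries 1 and 2 for every member.

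Among the members, uc008bvq.2 carried the largest footprint share per unit of listed length in 6 of 6 footprint libraries. Its share of the counts was 1.07%, 2.33% and 2.79% in WT footprint libraries 1, 2 and 3, and 2.79%, 1.14% and 1.53% in KO. The values form a lower group from 1.07% to 1.53% and a higher one from 2.33% to 2.79%, and both genotypes have libraries in each. In mRNA it held 0.227%, 0.258% and 0.623% in WT and 0.853%, 0.609% and 0.636% in KO, so that KO library 2 overlapped WT library 3.

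The longest member, uc007khe.2, was the largest of the 9 in mRNA, both by share and per unit of listed length, in 6 of 6 mRNA libraries. It made up 0.310%, 0.410% and 1.09% of the counts in WT mRNA libraries 1, 2 and 3, and 1.5%, 1.44% and 1.19% in KO. In footprints it made up 0.961%, 1.66% and 2.0% in WT and 2.84%, 0.983% and 1.35% in KO. Its footprint place varied more than that of the other members, from the first to the eighth by share. It was the only member whose mean footprint share was higher in KO (1.72% ± 0.984) than in WT (1.54% ± 0.531; SD, n = 3), a difference smaller than either spread.

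Of the members of length 165 and 166, uc007bhf.1 had the largest mean footprint share. It held 1.05%, 2.33% and 2.36% in WT footprint libraries 1, 2 and 3 and 2.42%, 0.901% and 1.16% in KO. Its mRNA share was 0.207%, 0.203% and 0.559% in WT and 0.889%, 0.823% and 0.579% in KO, with no overlap between genotypes. WT library 3 and KO library 3 differed by little.

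For uc007bhg.2, footprint shares ran from 0.780% to 2.16% over the 6 libraries, and mRNA shares were 0.147%, 0.172% and 0.426% in WT against 0.691%, 0.730% and 0.522% in KO. For uc007bhv.1, footprint shares ran from 0.663% to 1.82%, and mRNA shares were 0.0916%, 0.10% and 0.247% in WT against 0.484%, 0.673% and 0.450% in KO. This was the smallest member in 4 of 6 mRNA libraries. For uc007bhj.2, footprint shares ran from 0.566% to 1.77%, the lowest of the members in 6 of 6 footprint libraries. Its mRNA shares were 0.172%, 0.182% and 0.423% in WT against 0.773%, 1.07% and 0.657% in KO. In all of these 3 the mRNA of each KO library exceeded that of each WT library.

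The mRNA of uc007bhk.1 showed another order of libraries than that of the other members of its length. It held 0.207%, 0.222% and 0.530% of the counts in WT mRNA libraries 1, 2 and 3, and 0.677%, 0.321% and 0.298% in KO. KO libraries 2 and 3 lay between the WT libraries. Its footprint shares, 0.939%, 2.01% and 2.06% in WT and 2.27%, 0.704% and 0.956% in KO, followed the order of libraries seen in the other members of that length, with KO 1 highest and KO 2 lowest.

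The first comparison asked whether mRNA levels differed between KO and WT eyes. All 9 members had higher fitted mRNA levels in KO, with log2 fold changes from 0.64 to 2.09 and a median of 1.40. With the near-identical transcripts counted once the median was 1.45. Only uc007bhv.1 passed the test. Its log2 fold change of KO over WT was 2.09 (SE 0.67, edgeR quasi-likelihood adjusted p = 0.0370). The next, uc007bhj.2, had 1.91 (SE 0.76, edgeR adjusted p = 0.0878), and uc007bhg.2 had 1.6 (SE 0.71, edgeR adjusted p = 0.130). The smallest value was that of uc007bhk.1, 0.64 (SE 0.67, edgeR adjusted p = 0.552). Over all 14131 features tested, 15.2% passed in either direction and 9.16% were higher in KO, so 1 of 9 is near the background.

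These mRNA values rested strongly on which WT libraries were used, and the calls also on the test. With all libraries, DESeq2 called 8 of the 9 members higher (background 6.08%), all but uc007bhk.1, at nearly the same fold changes. These 8 include each of the near-identical transcripts. Without WT library 3 edgeR called all 9 higher, with a median log2 fold change of 2.18. In that fit 15.4% of all features were called higher, against 9.16% with all libraries. With WT represented by library 3 alone, 0 members were called by edgeR (background 1.22%) and the median was 0.44. uc007bhk.1 was then at -0.20 and uc007bhv.1 at 1.22 (edgeR adjusted p = 0.224). The call of uc007bhv.1 was lost whenever any 1 library other than WT 3 was left out, with edgeR adjusted p from 0.0669 without KO library 1 to 0.213 without WT library 2, while its log2 fold change stayed between 1.79 and 2.22.

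Other transcripts in the same band of listed length also had higher mRNA in KO. Of 475 non-members in the members' band of listed length that were tested, 77.5% had a positive log2 fold change, with a median of 0.48, against 50.9% and 0.02 for all features. For the 42 of them with at least 100 counts on average in each assay the median was 1.5, with 28 called higher and 0 lower. Of all features tested, 9.16% were called higher. The 42 include uc007bhi.2 and uc007bhh.3, whose reads may be shared with members. The members' median of 1.40 was thus close to that of abundant transcripts in their band of listed length. Abundant features of other listed lengths were not set beside them. By share of the library, 5 of 9 members had every KO mRNA library above every WT library, where 10.4% of all features tested did. Those 5 were uc007bhf.1, uc007khe.2, uc007bhg.2, uc007bhv.1 and uc007bhj.2. The part of listed length in these values was not tested beyond removing each library's own trend with it. After that, uc007bhv.1 still passed (log2 fold change 1.76, edgeR adjusted p = 0.0152) and the members' median was 1.14.

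The second comparison asked the same of ribosome footprints. No member passed the test. edgeR called 0 of 9, with 0 at an unadjusted p under 0.05, and DESeq2 called 0. Over 17236 features, edgeR called 1.12% and DESeq2 4.13%. The log2 fold changes lay between -0.36 (uc007bhf.1, SE 1.01, edgeR adjusted p = 0.870) and 0.16 (uc007khe.2, SE 1.0, edgeR adjusted p = 0.947), with a median of -0.26. With the near-identical transcripts counted once the median was -0.29. Each standard error was about as large as a doubling, so differences of that size were not detectable in these libraries. The sign itself depended on single libraries. Leaving out WT library 3 gave a median of 0.33, leaving out KO library 2 gave 0.09, and leaving out KO library 1 gave -1.05. In 0 of 9 members did the genotypes separate by share of the library, where 13.3% of all features had every KO library above WT and 7.66% had every KO library below.

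**Figure D2:**
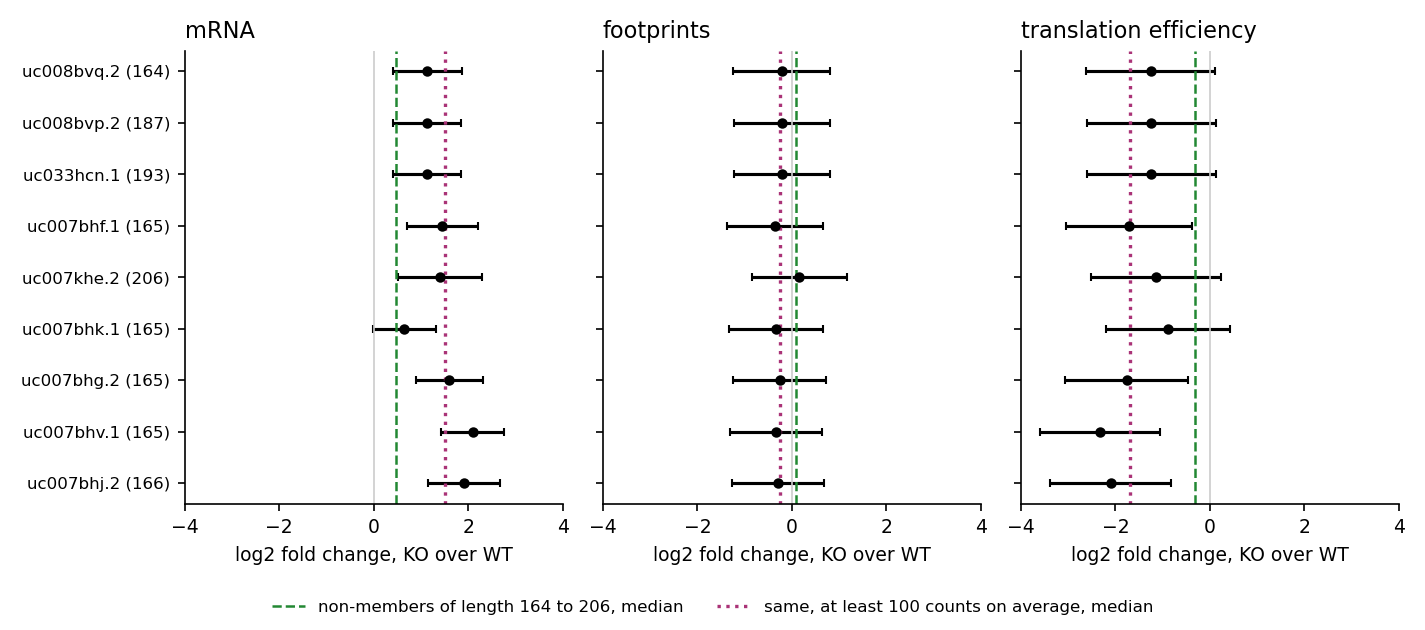
Log2 fold change of KO over WT for each member in mRNA, footprints and translation efficiency (points, with bars of 1 standard error from edgeR). The dashed line is the median of non-members in the same band of listed length, and the dotted line that of the 42 of them with at least 100 counts on average. In mRNA all points lie to the right of 0, in footprints they lie about 0, and in translation efficiency all lie to the left, near the dotted line.

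The third comparison concerned translation efficiency, the quantity named in the study's title, measured here as footprints relative to mRNA. For the summed members the ratio of the footprint share to the mRNA share was 4.58, 8.70 and 3.74 in WT samples 1, 2 and 3 and 2.74, 1.01 and 1.77 in KO samples 1, 2 and 3. Libraries with the same number were set together for this ratio, although the labels do not say that they came from the same tissue. Each KO value lay below each WT value, but this separation rested on that matching. With every footprint library set over every mRNA library of its genotype, the ratios ran from 1.6 to 10.7 in WT and from 0.978 to 3.71 in KO, and the genotypes overlapped in 9 of 9 members. The mean ratio of matched libraries was 5.68 ± 2.65 for WT and 1.84 ± 0.864 for KO (SD, n = 3), and without WT sample 3 the WT mean was 6.64. The ratio of the group mean shares, which needs no matching, was 5.04 for WT and 1.86 for KO. The mean footprint share was 0.860 times as large in KO as in WT.

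Among members, uc007bhv.1 had the highest ratio in each WT sample, at 8.11, 17.5 and 7.07, against 3.75, 0.985 and 1.98 in KO. The ratio of uc007bhj.2 was 3.8, 8.06 and 3.97 in WT and 2.29, 0.529 and 1.23 in KO. In KO sample 2, both of these therefore had smaller shares of footprints than of mRNA. The ratio of uc007bhk.1 was 4.54, 9.06 and 3.89 in WT against 3.35, 2.19 and 3.21 in KO. Its KO mean was 0.50 times its WT mean, the smallest difference among the members as a fold. The ratio of uc008bvq.2 was 4.72, 9.0 and 4.47 in WT against 3.28, 1.88 and 2.40 in KO.

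The longest member, uc007khe.2, had the lowest ratios in WT, 3.10, 4.04 and 1.84, with 1.89, 0.681 and 1.13 in KO. It was the only member in which the genotypes overlapped with libraries matched by number. The difference between its means, 2.99 in WT and 1.23 in KO, was smaller than that of any other member, but its ratios were also the lowest in WT. As a fold, its KO mean was 0.412 times its WT mean. That value was 0.50 for uc007bhk.1, 0.415 for uc008bvq.2 and 0.206 for uc007bhv.1. The mean ratio of uc007khe.2 stood at the 91.7th percentile of all features in the translation efficiency test, and those of the others between the 95.4th and the 98.9th. These percentiles describe levels that the choice by footprints favours.

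**Figure D3:**
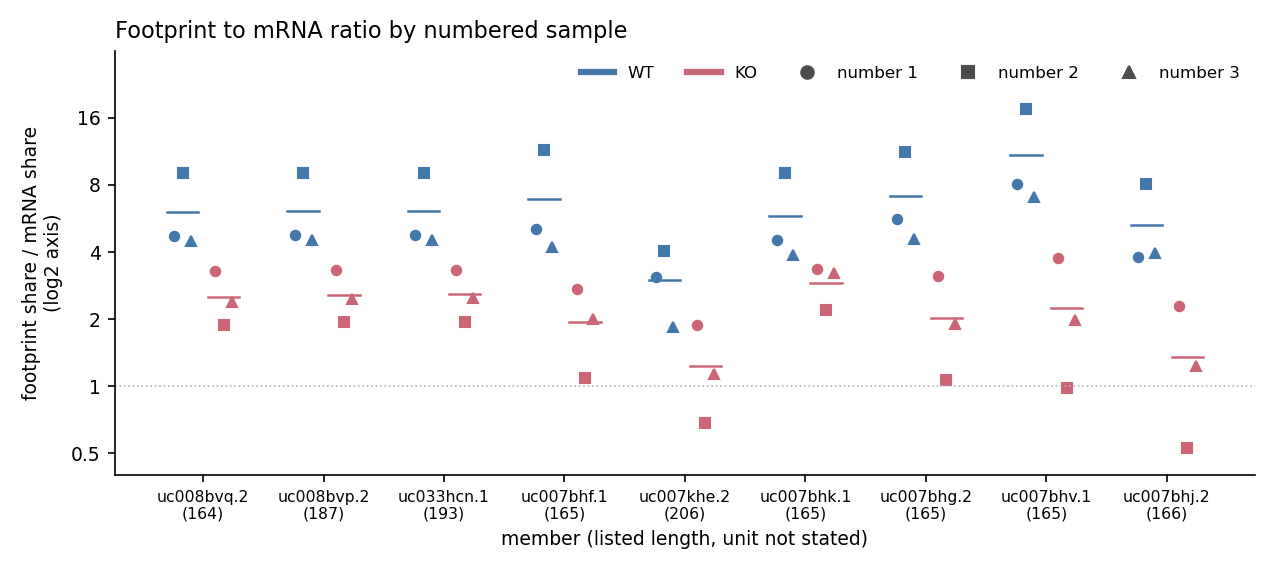
Footprint share divided by mRNA share for each member and numbered sample, on a log2 axis. Points are samples, bars are means of 3, and the dotted line marks equal shares. For 8 of 9 members each KO sample lies below each WT sample when libraries are matched by number, and uc007khe.2 overlaps.

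By the ratio of shares in libraries matched by number, 8 of 9 members had every KO sample below every WT sample, as did 6.58% of the 20469 features with counts in all libraries. These 8 count the near-identical transcripts 3 times and come from the same libraries, so they are not independent. In the model of all 12 libraries, the assay-by-genotype interaction was negative for all 9, with log2 values from -2.33 to -0.88 and a median of -1.26. With the near-identical transcripts counted once the median was -1.71. None of the 9 passed, with 0 at an unadjusted p under 0.05 by edgeR. DESeq2 called 0 as well, with 4 at an unadjusted p under 0.05. The largest in size were uc007bhv.1 at -2.33 (SE 1.27, edgeR adjusted p = 0.551) and uc007bhj.2 at -2.10 (SE 1.29, edgeR adjusted p = 0.604), and the smallest was uc007bhk.1 at -0.88 (SE 1.31, edgeR adjusted p = 0.864). Over the whole table edgeR called 2 of 25927 features, or 0.00771%, and DESeq2 0.243%.

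The lower ratio was also seen in other transcripts in this band of listed length. For the 42 abundant non-members in the same band of listed length the median interaction was -1.68, with 97.6% of them negative. The median of the members was -1.26, or -1.71 with the near-identical transcripts counted once. For all 1581 tested non-members of that length the median was -0.32, with 63.6% negative, and for all features -0.08, with 53.8% negative. With WT mRNA represented by library 3 alone, the members' median was -0.43, and uc007bhk.1 stood at -0.08. Without sample 3 of WT in both assays the median was -1.26.

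The make-up of the group within each library does not depend on how libraries are scaled to each other. With the near-identical transcripts counted once, 7 members remain, and each is given as a percent of their summed counts. In footprints the make-up varied little for most members. uc007bhj.2, for example, formed 10.5%, 10.9% and 11.5% in WT libraries 1, 2 and 3 and 11.0%, 9.87% and 10.5% in KO, and uc007bhg.2 formed between 12.9% and 14.3% in all 6. The member that differed most in footprints was uc007khe.2, with 15.4%, 12.3% and 13.7% in WT and 17.7%, 17.1% and 17.5% in KO.

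In mRNA the make-up of several members lay in a narrow range among WT libraries and apart from it in KO, farthest in KO libraries 2 and 3. uc007bhk.1 formed 15.2%, 14.4% and 13.6% of the members' mRNA in WT and 11.5%, 5.66% and 6.87% in KO. uc007bhv.1 formed 6.72%, 6.46% and 6.35% in WT and 8.25%, 11.9% and 10.4% in KO. uc007bhj.2 formed 12.7%, 11.8% and 10.9% in WT and 13.2%, 18.9% and 15.2% in KO. WT library 3, which stood apart in the level of the members, was close to the other WT libraries in the make-up of these 3 members. uc007bhf.1 (13.1% to 15.2%) and uc007khe.2 (22.8% to 27.9%) overlapped between genotypes.

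The same can be seen in the ratio of counts between members of nearly equal length. uc007bhk.1 had 1.2, 1.22 and 1.25 times the mRNA count of uc007bhj.2 in WT libraries 1, 2 and 3, and 0.876, 0.30 and 0.453 times in KO. The same ratio in footprints was 1.43, 1.37 and 1.23 in WT and 1.28, 1.24 and 1.18 in KO. Against uc007bhv.1, uc007bhk.1 had 2.26, 2.22 and 2.14 times the mRNA count in WT and 1.40, 0.477 and 0.662 times in KO, while in footprints the ratio lay between 1.06 and 1.26 in all 6 libraries. The relative mRNA counts of these members thus differed between genotypes by more than their spread within WT, and their relative footprint counts differed by much less. The spread of the mRNA ratios within KO was wide, from 0.30 to 0.876 and from 0.477 to 1.40, with KO library 1 nearest to WT. These pairs were picked after their values were seen and were not tested. If reads were shared out among similar transcripts, the ratios would be affected, and this was not tested.

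**Figure D4:**
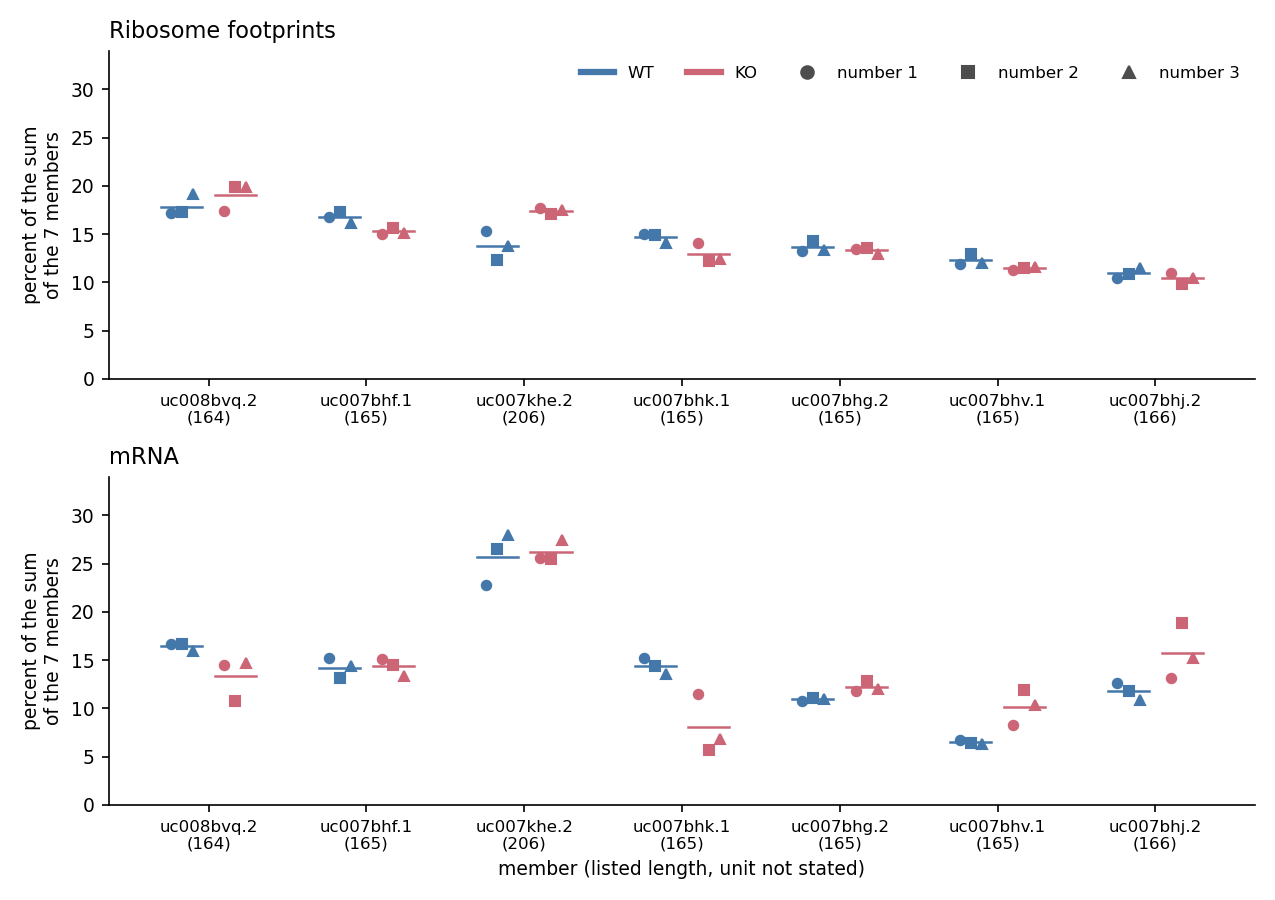
Each of 7 members as a percent of their summed counts in a library, in footprints (top) and mRNA (bottom), with points for libraries and bars for means of 3. In mRNA uc007bhk.1 lies between 13.6% and 15.2% in WT and between 5.66% and 11.5% in KO, and in footprints between 12.3% and 15.0% in all libraries.

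By this measure 5 of 7 members had KO mRNA libraries wholly above or below WT. This count says little, since 58.8% of all features did so relative to the members' sum, which itself was higher in every KO library. In footprints 4 of 7 did so (uc007bhf.1, uc007bhk.1 and uc007bhv.1 lower, uc007khe.2 higher), and 5.74% of all features did relative to that sum. These shares are not comparable either, since the members' footprint sum varied widely within both genotypes, which spreads other features but cancels for the members. The members' percents add up to a whole, so a higher percent of 1 member goes with lower percents of others.

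The features whose levels ran most like those of the group over the 12 libraries were sought among 677 non-members with at least 100 counts on average in each assay. The Pearson correlation of log2 CPM (counts scaled to the library total) with that of the summed members was 0.995 for uc007bhi.2, 0.991 for uc007bhh.3 and 0.991 for uc057azc.1 (listed length 104), against a median of -0.29. Both assays enter this correlation, so the gap between footprints and mRNA contributes to it, and reads may be shared with members. uc007bhi.2 and uc007bhh.3 are the features just under the threshold. uc057azc.1 held 0.468%, 0.781% and 0.888% of the counts in WT footprint libraries 1, 2 and 3 and 1.21%, 0.443% and 0.604% in KO. In mRNA it held 0.0818%, 0.10% and 0.274% in WT and 0.369%, 0.349% and 0.283% in KO, so that the genotypes did not overlap there, though WT library 3 was close to KO library 3.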

How the data were processed

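TopHat2 2.0.9, Bowtie2 2.3.4.2 and CASAVA 1.8 were used with mm10, per the submitters' processing notes. The counting rule, the annotation and how multiply matching reads were handled are not given in these sources. The authors deposited raw read counts for 63759 UCSC transcripts per library, with a second number (the listed length) that has no stated unit and was missing for 17340 transcripts, which had 0 counts. Transcripts with a listed length and a count were kept, and each distinct set of 12 counts once.

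Shares are percents of the kept counts. That total holds each of the near-identical transcripts, also where the sum of the members counts them once. KO and WT were compared with edgeR 4.0.16 (limma 3.58.1, R 4.3.3): quasi-likelihood F tests, TMM scaling, the default low-count filter, Benjamini-Hochberg adjustment over all features tested and a threshold of 0.05. Standard errors come from the F statistic. Translation efficiency was the assay-by-genotype interaction, for features whose counts summed to 10 or more in each assay, with TMM factors computed within each assay. DESeq2 1.42.0 was an alternative. The scripts were tested on simulated data. log2 CPM used a prior count of 2. Named features were the members, those just under the threshold, the most abundant non-member and the 3 most alike in pattern. The members, lists and tests were chosen with earlier results of these data known. Lists of lens genes and tissue markers were not used, since identifiers were not paired with genes.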

Additional observations from a re-analysis of the deposited data

How the results depend on the processing

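Calls depended on the libraries and the tool, and the cause was not tested. In mRNA (2145 features and 1 member called), DESeq2 called 1281 and 8, and WT mRNA library 3 alone left 328 and 0. With no low-count filter 2 members were called. Library totals only gave 894 higher and 2056 lower, against 1294 and 851, and moved the median log2 fold change of all features from 0.02 to -0.25 and that of the members from 1.40 to 1.2. Leaving out a replicate gave 652 to 4379 features and 0 to 9 members. In footprints (193 features), counts were 0 with library totals only, 711 with DESeq2, 968 with no low-count filter, 1537 with length trends removed, and 0 to 3057 without a replicate. In translation efficiency (2 features), they were 0 with library totals only, 63 with DESeq2, 5 with length trends removed, 0 with WT mRNA library 3 alone, 44 without WT footprint library 1, and 0 to 140 without a replicate. In footprints and in translation efficiency 0 members were called in any alternative run.

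No label states that the numbers mark a pairing. Libraries with the same number had deviations from their group means that correlated across genotypes at -0.349 to 0.114 in footprints and -0.0118 to 0.0792 in mRNA. Across assays the correlation was 0.334, 0.0548 and 0.499 for WT numbers 1, 2 and 3, and 0.0346 to 0.115 for KO. Libraries of different numbers were not correlated for comparison, so these values do not settle whether the numbers pair libraries. No test of the main comparisons used a pairing. Only the ratio of shares set libraries of the same number together, and the separation of genotypes in 8 of 9 members was lost in all 9 without that matching, a setting added after seeing the data. With the replicate block, 2120 features and 1 member were called in mRNA, 0 features in footprints and 1 in translation efficiency. A block for each numbered sample, added after seeing the data, gave 339 features and 0 members.

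Signs of translation efficiency did not change in the alternatives run. In mRNA 1 did: uc007bhk.1 was -0.20 with WT mRNA library 3 alone. In footprints, leaving out replicates turned signs, most often without WT replicate 3 and KO replicate 2. The members' median of -0.26 then ran from -1.05 to 0.33, uc008bvq.2 from -0.88 to 0.43, uc008bvp.2 and uc033hcn.1 from -0.87 to 0.45, uc007bhf.1 from -1.12 to 0.16, uc007khe.2 from -0.63 to 0.77, uc007bhk.1 from -1.23 to 0.19, uc007bhg.2 from -1.05 to 0.27, uc007bhv.1 from -1.09 to 0.19 and uc007bhj.2 from -1.13 to 0.33. The summed mRNA share in KO was 6.66% with all 9 features counted. Sums with all 9, the share against WT mRNA library 3 alone and the fit without WT footprint library 1 were added after seeing the data.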
